A study of Mus musculus with 8 samples.

Results

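The data describe 10 genes of 4 families of splicing regulators in the hippocampus of mice: Rbfox1, Rbfox2 and Rbfox3, Nova1 and Nova2, Ptbp1, Ptbp2 and Ptbp3, and Mbnl1 and Mbnl2. They were taken by symbol from a table of 56575 features, 24338 of which have a symbol, and each symbol occurred in 1 row. RNA was sequenced from the hippocampus of C57BL/6 mice of 8 weeks, with 4 libraries labelled WT and 4 labelled Slm2KO, and the study compared these genotypes. SLM2 is the STAR-family RNA-binding protein encoded by Khdrbs3. Not given in the sources used here is which stretch of Khdrbs3 the knockout lacks. The labels name no treatment, no transgene and no driver line. Samples carry numbers, but nothing ties each to an animal of its own, and p-values therefore reflect only how these samples spread, which may be technical.

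These proteins bind short motifs in pre-mRNA and decide, with their position relative to an exon, whether the exon is kept or skipped. Rbfox proteins bind UGCAUG, and Rbfox3 is the antigen NeuN of mature neurons. Nova proteins bind clusters of CAU-containing motifs through KH domains and were first known as targets of autoimmune antibodies in neurological disease. Ptbp proteins bind pyrimidine-rich stretches and mostly repress exons. Ptbp1 is the form of progenitors and non-neuronal cells, where it makes Ptbp2 transcripts skip an exon and decay, and Ptbp2 takes over in neurons. Ptbp3 is best known from blood cells. Mbnl proteins are zinc finger proteins that CUG-repeat RNA sequesters in myotonic dystrophy, and Mbnl2 is the member best known from brain.

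Because paralogs could share reads, the coding stretches that the closest pairs have in common are shown, with the shared stretch in capitals and 12 flanking bases on each side, from GENCODE vM21 transcripts (mm10), 5′ to 3′ in the sense of the gene.
Rbfox1: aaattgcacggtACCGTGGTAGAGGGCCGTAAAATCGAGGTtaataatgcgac
Rbfox2: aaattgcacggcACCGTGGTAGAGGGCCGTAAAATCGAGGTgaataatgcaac
Ptbp1: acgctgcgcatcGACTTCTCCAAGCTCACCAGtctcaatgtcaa
Ptbp3: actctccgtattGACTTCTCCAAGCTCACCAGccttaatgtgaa
Mbnl1: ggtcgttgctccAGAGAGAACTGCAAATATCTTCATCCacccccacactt
Mbnl2: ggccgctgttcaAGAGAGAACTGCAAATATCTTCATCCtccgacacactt
The shared stretch was 29 bases for Rbfox1 and Rbfox2, 26 for Mbnl1 and Mbnl2, and 20 for Ptbp1 and Ptbp3. In none of the 8 pairs of paralogs within a family did the transcripts share a window of 30 bases (0 windows in each pair). Aligned coding sequences were identical at 68.4% of aligned columns for Rbfox2 and Rbfox3, the lowest pair, and at 73.5% for Mbnl1 and Mbnl2, the highest. Whether the authors' counting moved any reads between paralogs was not tested.

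The libraries held 104020058 to 125985224 reads, and pairs of libraries with the same label differed beyond the noise of counting (chi-square over degrees of freedom of 18.8 to 149). Khdrbs3 itself ran from 19458 to 24544 normalised reads in libraries labelled WT and from 25932 to 33366 in those labelled Slm2KO, so it was higher in the latter. The targeted gene goes against the label at the level of the whole row, and every direction below is between libraries so labelled. Khdrbs2, a close relative of Khdrbs3, was at 1096 ± 98.4 in libraries labelled WT and 2481 ± 290 in those labelled Slm2KO (SD, n = 4 each). It was the only 1 of 25667 features tested that passed (log2 difference 1.18, limma adjusted p = 0.00761). This call was lost without WT 1, WT 4, Slm2KO 1 or Slm2KO 3 (limma adjusted p = 0.0587, 0.0769, 0.0528 and 0.0756) and in limma without the trend (0.172), with a log2 difference of 1.13 to 1.19 in these fits. All 10 markers of hippocampal fields and all 10 neuron markers looked for were found, none at 0 in any library. In a bulk tissue, fewer cells of a type and less RNA per cell cannot be told apart.

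All 10 genes were detected deeply, with no library below 1420 normalised reads for any of them, and none passed the test between the labels. Normalised read counts are reads scaled between libraries by the authors and not divided by gene length, so they serve for comparing libraries within 1 gene. Between genes, levels are given per kilobase (kb) of annotated exon, the union of all exons of the gene.

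Rbfox1 was the highest of the 10 genes per kb, with 3636 ± 388 normalised reads per kb of exon (SD, n = 8 libraries). Rbfox1 lies on chromosome 16 (mm10, 5884793 to 7412479, plus strand) and is known for neurons, heart and muscle. Its normalised read count was 15512, 17202, 15682 and 17704 in WT 1 to WT 4, and 15965, 17547, 16011 and 12350 in Slm2KO 1 to Slm2KO 4. The library Slm2KO 4 was the lowest of all 8, and the other 3 libraries labelled Slm2KO lay inside the range of those labelled WT. The log2 difference, Slm2KO minus WT, was -0.10 (SE 0.100), with a 95% interval of 0.797-fold to 1.09-fold (limma adjusted p = 1.00).

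Rbfox2 is the most broadly expressed Rbfox gene across tissues (chromosome 15, 77078990 to 77307054, minus strand). It stood at 1037 ± 85.1 normalised reads per kb. Its normalised read count was 8064, 9353, 8011 and 8833 in WT 1 to WT 4 and 8586, 9343, 7764 and 7574 in Slm2KO 1 to Slm2KO 4. The labels overlapped, and the 2 lowest libraries were both labelled Slm2KO. Rbfox2 had a log2 difference of -0.04 (SE 0.079), with an interval of 0.858-fold to 1.10-fold.

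Rbfox3, the gene of NeuN (chromosome 11, 118489760 to 118911597, minus strand), stood between its paralogs at 2031 ± 258 normalised reads per kb. Its normalised read count was 11824, 13356, 10432 and 12212 in WT 1 to WT 4 and 12764, 13399, 11516 and 9027 in Slm2KO 1 to Slm2KO 4. The highest and the lowest library were both labelled Slm2KO. For Rbfox3 the log2 difference was -0.04 (SE 0.120), with an interval of 0.805-fold to 1.17-fold.

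Of the Rbfox reads per kb, Rbfox1 took 54.2% ± 1.36, Rbfox3 30.2% ± 1.24 and Rbfox2 15.5% ± 0.905 (SD, n = 8). This order held in each of the 8 libraries. Rbfox1 stood 3.50 times above Rbfox2 per kb, between 3.02 and 3.82 over the libraries, and 1.80 times above Rbfox3, between 1.65 and 1.99. These levels depend on the length used: per kb of the longest transcript the ratio of Rbfox2 to Rbfox3 was 0.328 in place of 0.514, and per kb of coding sequence that of Rbfox1 to Rbfox2 was 2.04.

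**Figure D1:**
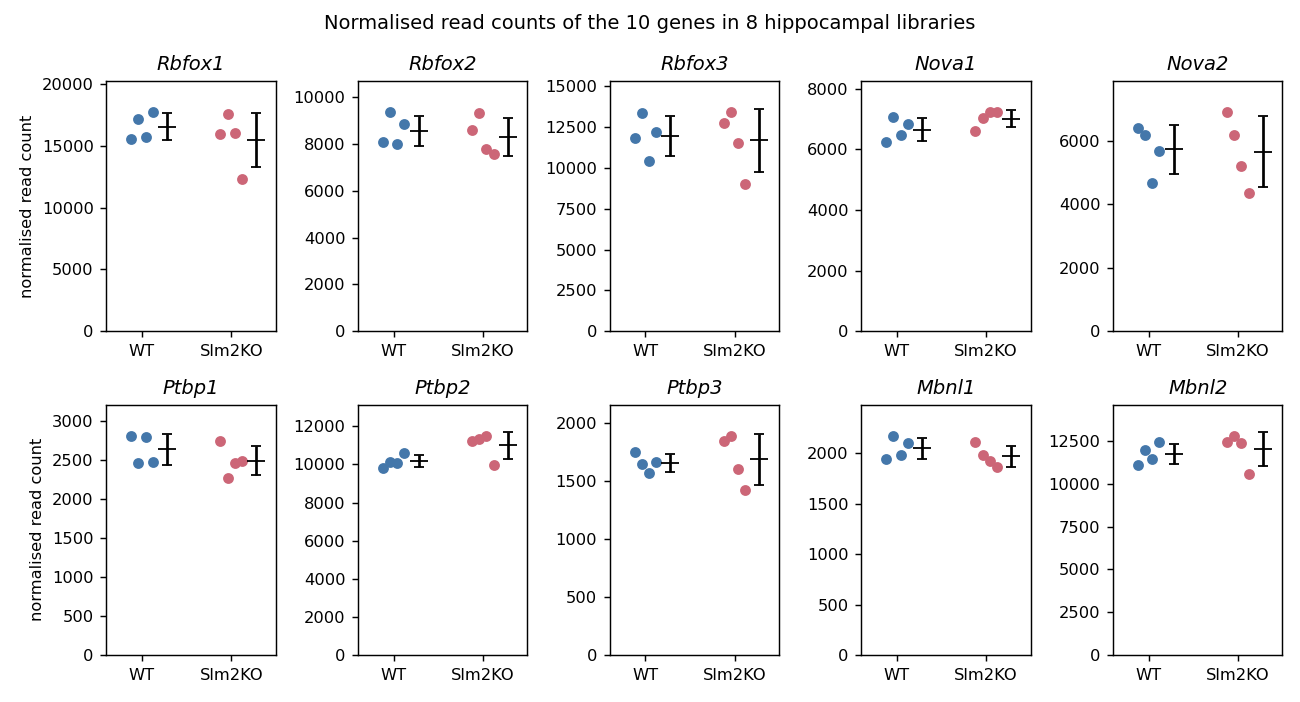
Normalised read count (y axis, from 0) of each of the 10 genes in the 4 libraries labelled WT (blue points) and the 4 labelled Slm2KO (red points), with the mean and SD of each label in black. The labels overlap for each gene, and for 7 of the 10 genes the lowest point is the library Slm2KO 4.

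The Nova paralogs were close to each other. Nova1 (chromosome 12, 46694517 to 46818775, minus strand) stood at 782 ± 41.6 normalised reads per kb and Nova2 (chromosome 7, 18925343 to 18965319, plus strand) at 681 ± 107. Their ranges overlapped, with Nova1 above Nova2 in 6 of 8 libraries, and Nova1 took 53.7% ± 4.66 of their sum. This count depends on the length used: per kb of coding sequence Nova1 stood above Nova2 in 8 of 8 libraries. Per kb of the longest transcript the lowest share of Nova1 in any library was 52.8%.

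Nova1, known for brainstem and spinal cord, had normalised read counts of 6238, 7069, 6491 and 6831 in WT 1 to WT 4 and 6601, 7026, 7226 and 7223 in Slm2KO 1 to Slm2KO 4. The highest 2 values carried the label Slm2KO and the lowest 2 the label WT. Its log2 difference was 0.08 (SE 0.056), with an interval of 0.967-fold to 1.15-fold. Nova2, known for neocortex and hippocampus, had 6409, 6194, 4659 and 5674 in WT 1 to WT 4 and 6903, 6192, 5215 and 4347 in Slm2KO 1 to Slm2KO 4. It varied most of the 10 genes over the 8 libraries, with a coefficient of variation of 15.7%, against a median of 6.84% among the 10831 features with a mean of at least 1000. For Nova2 the log2 difference was -0.03 (SE 0.144), with an interval of 0.785-fold to 1.22-fold.

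In the Ptbp family the neuronal form led. Ptbp2 (chromosome 3, 119718546 to 119783389, minus strand) stood at 1154 ± 73.3 normalised reads per kb, Ptbp1 (chromosome 10, 79854432 to 79864434, plus strand) at 540 ± 40.6 and Ptbp3 (chromosome 4, 59471868 to 59549364, minus strand) at 224 ± 20.4. Their shares of the family were 60.2% ± 2.22, 28.2% ± 2.31 and 11.7% ± 0.800, and their ranges did not overlap.

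Ptbp2 had normalised read counts of 9838, 10143, 10083 and 10623 in WT 1 to WT 4 and 11217, 11335, 11493 and 9975 in Slm2KO 1 to Slm2KO 4. The libraries Slm2KO 1, 2 and 3 lay above each library labelled WT, and Slm2KO 4 lay among them. The log2 difference was 0.11 (SE 0.057), the highest of the 10 genes, with an interval of 0.990-fold to 1.18-fold. Ptbp2 had the smallest limma p of the 10 genes, 0.0771 before and 1.00 after adjustment (two-sided exact permutation p = 0.114). Without the library Slm2KO 4 its log2 difference was 0.16 (limma adjusted p = 0.898).

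Ptbp1 had normalised read counts of 2803, 2458, 2790 and 2470 in WT 1 to WT 4 and 2733, 2271, 2461 and 2485 in Slm2KO 1 to Slm2KO 4. WT 1, WT 3 and Slm2KO 1 were the highest 3 libraries, so the labels overlapped. For Ptbp1 the log2 difference was -0.08 (SE 0.075), with an interval of 0.843-fold to 1.06-fold. The library kit does not mark strand. Of the exon bases of Ptbp1, 2872 lie within the span of Lppr3 and 295 within that of E130317F20Rik, both on the opposite strand. All 4740 lie within the span of a long opposite-strand row named Tmem259. These spans include introns, and overlap of exons with exons was not measured. The rows of Lppr3, E130317F20Rik and Tmem259 averaged 2423, 551 and 6926 normalised reads. Reads of Ptbp1 and of these features may therefore not all be told apart, and the level of Ptbp1 is uncertain.

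Ptbp3 had normalised read counts of 1751, 1647, 1567 and 1666 in WT 1 to WT 4 and 1845, 1889, 1603 and 1420 in Slm2KO 1 to Slm2KO 4. Both the highest and the lowest library carried the label Slm2KO. For Ptbp3 the log2 difference was 0.02 (SE 0.093), with an interval of 0.878-fold to 1.17-fold. Per kb of the longest transcript the ratio of Ptbp2 to Ptbp3 was 10.8 in place of 5.18. Per kb of coding sequence that of Ptbp1 to Ptbp2 was 0.233 in place of 0.470, and that of Ptbp1 to Ptbp3 was 1.54 in place of 2.43.

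In the Mbnl family Mbnl2 (chromosome 14, 120275669 to 120431691, plus strand) held nearly all of the signal. It stood at 993 ± 65.3 normalised reads per kb and Mbnl1 (chromosome 3, 60472830 to 60629748, plus strand) at 107 ± 5.66, the lowest of the 10 genes. Mbnl2 took 90.2% ± 0.508 of their sum. The annotated exons of Mbnl1 add up to 18.717 kb although its longest transcript has 5655 bases. Per kb of the longest transcript the ratio of Mbnl1 to Mbnl2 was 0.166 in place of 0.108, and Mbnl1 then stood above Ptbp3.

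Mbnl1 had normalised read counts of 1944, 2172, 1987 and 2100 in WT 1 to WT 4 and 2114, 1984, 1920 and 1869 in Slm2KO 1 to Slm2KO 4. The labels overlapped, with the lowest 2 libraries labelled Slm2KO. Mbnl1 had a log2 difference of -0.06 (SE 0.063), with an interval of 0.872-fold to 1.06-fold. Mbnl2 had 11080, 12007, 11455 and 12458 in WT 1 to WT 4 and 12462, 12803, 12407 and 10589 in Slm2KO 1 to Slm2KO 4. Slm2KO 1 and 2 were above each library labelled WT and Slm2KO 4 was below them all. Mbnl2 had a log2 difference of 0.04 (SE 0.069), with an interval of 0.922-fold to 1.14-fold.

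The order of levels per kb of exon was Rbfox1, Rbfox3, Ptbp2, Rbfox2, Mbnl2, Nova1, Nova2, Ptbp1, Ptbp3 and Mbnl1. The neighbours Ptbp2 and Rbfox2, Rbfox2 and Mbnl2, Nova1 and Nova2, and Nova2 and Ptbp1 had overlapping ranges. In each of these 4 neighbouring pairs the order was the other way in at least 1 library. The remaining neighbours did not overlap. The order depends on the length used. Per kb of the longest transcript and of coding sequence the ranges of Rbfox1 and Rbfox3 overlapped. Per kb of the longest transcript Mbnl2 stood above Rbfox2 in 8 of 8 libraries, and per kb of coding sequence Mbnl2 ranked 3.

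**Figure D2:**
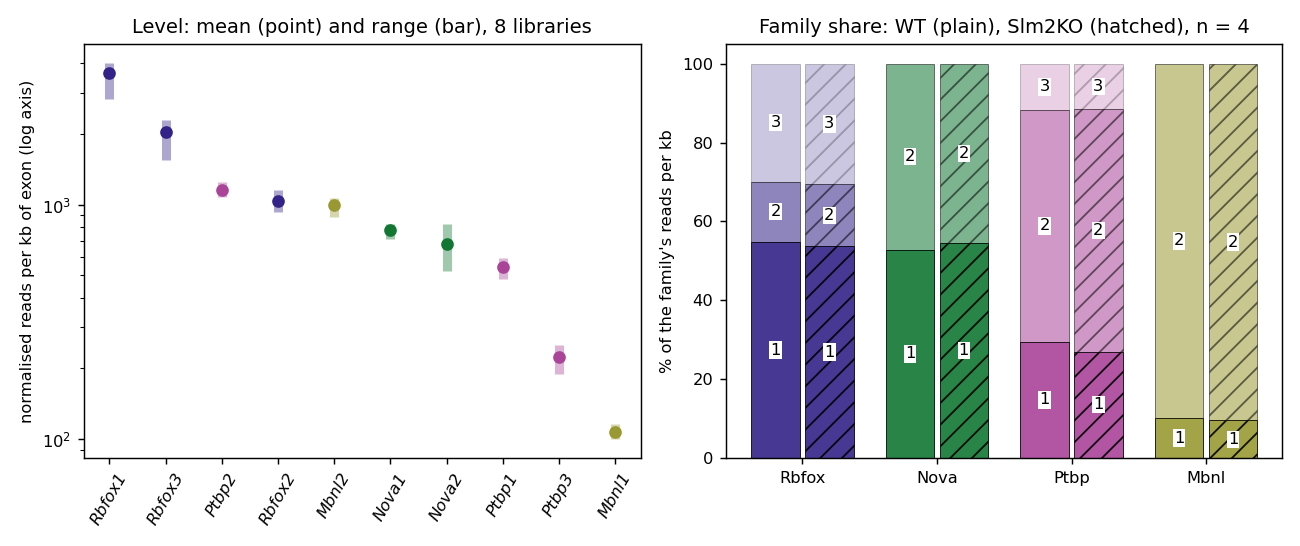
Left, normalised reads per kb of exon (log axis) for the 10 genes in falling order, with the mean as a point and the range over 8 libraries as a bar, coloured by family. Right, share of each family's reads per kb taken by each gene in libraries labelled WT (plain) and Slm2KO (hatched), n = 4 each; Rbfox1, Ptbp2 and Mbnl2 hold the largest shares of their families under both labels.

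Between the labels, 0 of the 10 genes passed in limma after adjustment over all features, against 0.0039% of the features tested. None had an unadjusted p under 0.05 (0 of 10, background 3.52%), and for no gene did the labels separate (0 of 10, background 2.5%). DESeq2 on the recovered reads also called 0 of the 10 genes, with 0 at an unadjusted p under 0.05, and edgeR called 0, with 1 (Ptbp2) at an unadjusted p under 0.05. The differences were positive for 4 genes and negative for 6, with a median of -0.04 against -0.01 over all features tested. The 95% intervals of all 10 genes excluded a 1.5-fold difference in either direction, and those of 8 excluded a 1.25-fold difference. Nova2 had the widest of these intervals. Of 9 marker lists 1 separated the labels: the mean log2 level of 4 oligodendrocyte precursor markers was 12.63 to 12.67 in libraries labelled WT and 12.48 to 12.59 in those labelled Slm2KO, with none of the 4 markers called (0 of 4). The part of these cells in the differences of the 10 genes was not tested.

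**Figure D3:**
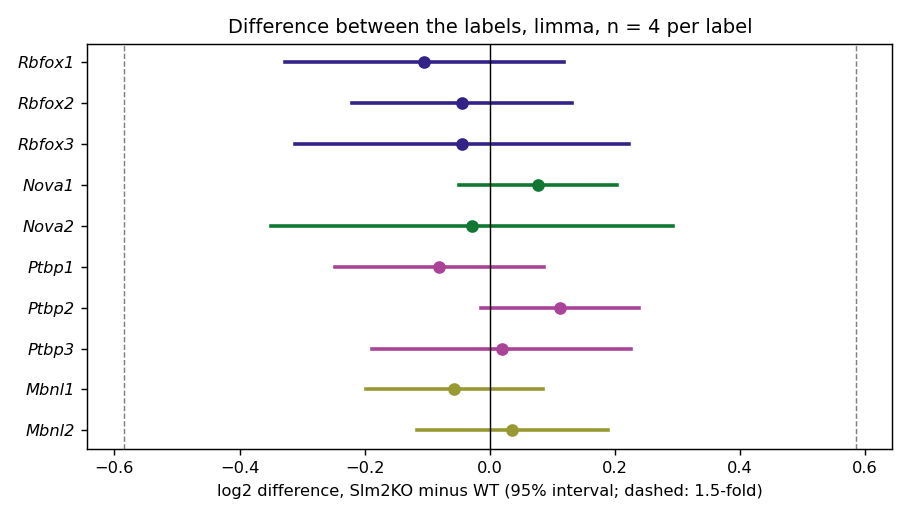
Log2 difference, Slm2KO minus WT, of each of the 10 genes (x axis) with its 95% interval from limma, n = 4 libraries per label, and dashed lines at 1.5-fold. Each interval includes 0 and lies within the dashed lines, from -0.10 for Rbfox1 to 0.11 for Ptbp2.

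Ratios of paralogs within a library do not depend on scaling between libraries, and gene length cancels when a ratio is compared between labels. For none of the 8 ratios did the labels separate. The ratio of Ptbp1 to Ptbp2 differed most: per kb it was 0.551, 0.469, 0.536 and 0.450 in WT 1 to WT 4, and 0.472, 0.388, 0.415 and 0.482 in Slm2KO 1 to Slm2KO 4. WT 1 and WT 3 were the highest and Slm2KO 2 and 3 the lowest, while the other 4 libraries overlapped. Its log2 difference was -0.19 (two-sided exact permutation p = 0.171, where 4 libraries against 4 can reach 0.0286). This is the smallest p of the 8 ratios, before any adjustment, and it rests on a Ptbp1 level that overlapping features could enter.

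The other ratios differed less. The log2 difference was -0.06 for Rbfox1 to Rbfox2, -0.06 for Rbfox1 to Rbfox3 and 0.00 for Rbfox2 to Rbfox3 (exact permutation p = 0.514, 0.400 and 1.00). It was 0.11 for Nova1 to Nova2 and -0.09 for Mbnl1 to Mbnl2 (exact permutation p = 0.771 and 0.200). It was -0.10 for Ptbp1 to Ptbp3 and 0.09 for Ptbp2 to Ptbp3 (exact permutation p = 0.486 and 0.286). As shares, Ptbp2 took 58.8% ± 1.97 of its family in libraries labelled WT and 61.5% ± 1.68 in those labelled Slm2KO (SD, n = 4 each).

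The sample numbers in the labels fall into a lower series (WT 1, WT 2, Slm2KO 1 and Slm2KO 2) and a higher series (WT 3, WT 4, Slm2KO 3 and Slm2KO 4). The labels do not say what the numbers stand for, and the 2 series were compared after the data had been seen. The 3 libraries with Y-linked reads (sums of 17979 to 19517 over 4 genes, against at most 3.62 in the others) are WT 4, Slm2KO 3 and Slm2KO 4, all of the higher series. The series and the presence of Y-linked reads therefore partly coincide, and the part of either in the values below was not tested.

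Of the 10 genes 1, Nova2, did not overlap between the series, a share near the background of 7.28% of features, so the following values describe these libraries and say nothing particular about the 10 genes. The normalised read count of Nova2 was 6425 ± 335 in the lower and 4974 ± 589 in the higher series (SD, n = 4 each), and each library of the lower series was above each of the higher. The log2 difference, higher minus lower with the genotype label kept in the model, was -0.38 (SE 0.085, limma unadjusted p = 0.00154, adjusted p = 0.208; two-sided exact permutation p = 0.0286). After adjustment 0 of the 10 genes passed between the series (background 0.0117%), while 3 of 10 had an unadjusted p under 0.05 (background 12.3%): Nova2, Rbfox3 (-0.26, adjusted p = 0.334) and Ptbp3 (-0.19, adjusted p = 0.356).

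The ratio of Nova1 to Nova2 per kb was 0.932, 1.09, 0.915 and 1.09 in WT 1, WT 2, Slm2KO 1 and Slm2KO 2, and 1.33, 1.15, 1.33 and 1.59 in WT 3, WT 4, Slm2KO 3 and Slm2KO 4. Per kb of exon, the lower series stood on both sides of 1 and the higher series above 1 throughout. Per kb of coding sequence, Nova1 was above Nova2 in 8 of 8 libraries. The ratios of Rbfox1 to Rbfox3 (1.71 ± 0.037 against 1.89 ± 0.081) and of Ptbp2 to Ptbp3 (4.86 ± 0.195 against 5.50 ± 0.330) also did not overlap between the series. For each of these 3 of 8 ratios the two-sided exact permutation p was 0.0286, the smallest that 4 against 4 can give. This p was not adjusted for the 8 ratios compared. The denominators, Nova2, Rbfox3 and Ptbp3, are the 3 genes named above as lower in the higher series, so the ratios are not separate results. The share of ratios of other gene pairs without overlap was not computed.

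Of the marker lists, that of endothelial and mural cells alone did not overlap between the series. The mean log2 level of 8 endothelial and mural markers was 11.1 to 11.4 in the lower and 10.6 to 11.0 in the higher series, without overlap. The lists of choroid plexus (1.01 higher on the log2 scale in the higher series), oligodendrocyte (0.25 higher) and hippocampal field markers (-0.23) overlapped. Their part in the Nova2 values was not tested.

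**Figure D4:**
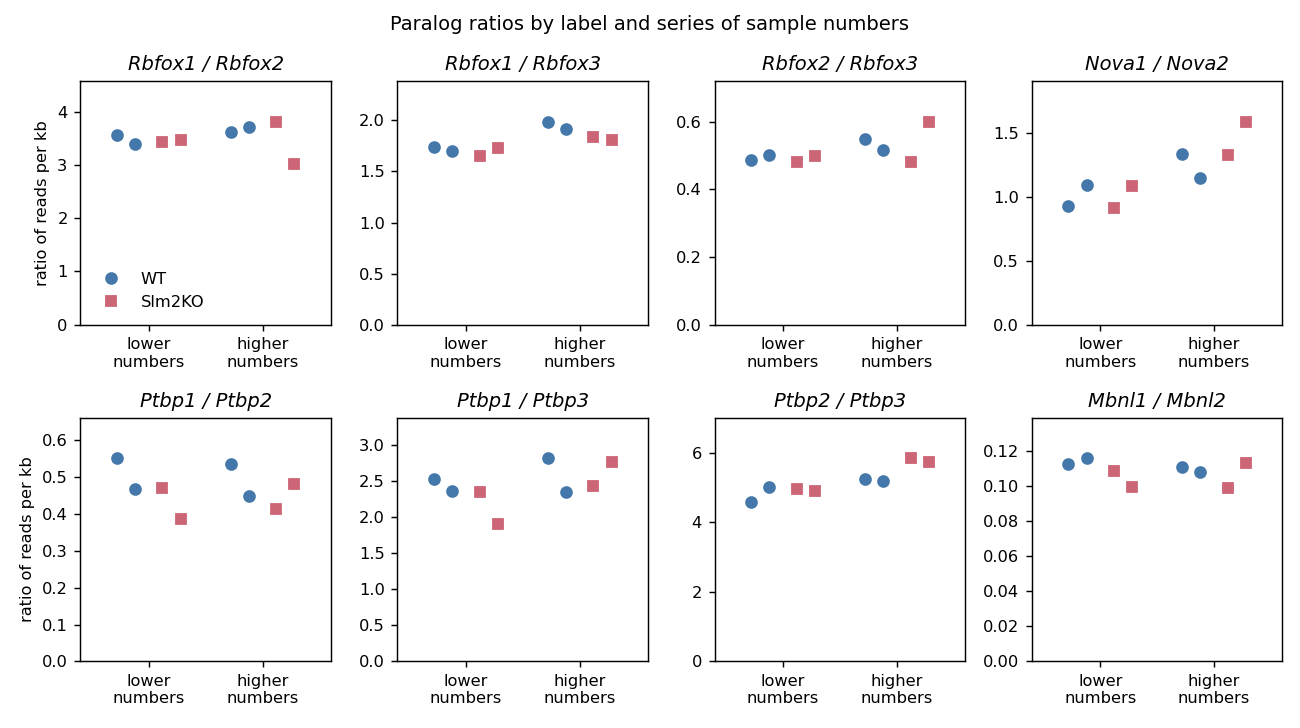
Ratio of normalised reads per kb (y axis, from 0) for 8 pairs of paralogs in each of the 8 libraries, split by lower and higher sample numbers (x axis) and coloured by label. Nova1/Nova2, Rbfox1/Rbfox3 and Ptbp2/Ptbp3 are higher in each library of the higher series, and in none of the 8 panels do the labels separate.

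Within the lower series alone the log2 difference between the labels was 0.17 for Ptbp2, 0.14 for Ptbp3, 0.13 for Mbnl2 and 0.04 for Rbfox1. Within the higher series it was 0.05 for Ptbp2, -0.10 for Ptbp3, -0.06 for Mbnl2 and -0.24 for Rbfox1. Ptbp1 was negative in both series (-0.08 and -0.09) and Nova1 positive in both (0.04 and 0.12). With 2 libraries per label in a series these are values with no test.

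Slm2KO 4, the lowest library for 7 of the 10 genes (Rbfox1, Rbfox2, Rbfox3, Nova2, Ptbp3, Mbnl1 and Mbnl2), was also the library richest in choroid plexus RNA. Ttr, the transthyretin gene that marks choroid plexus epithelium, ran from 219052 normalised reads in WT 2 to 2262370 in Slm2KO 4. All 10 choroid plexus markers were found and none was at 0 in any library. Their mean log2 level was 10.9 to 13.5 in libraries labelled WT and 11.4 to 13.9 in those labelled Slm2KO. Slm2KO 4 was also lowest for the neuron, hippocampal field, astrocyte, oligodendrocyte precursor, microglia, and endothelial and mural lists. It was not lowest for the oligodendrocyte and meningeal fibroblast lists. The share of all features lowest in Slm2KO 4 was not computed, so the count of 7 says nothing particular about these genes.

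Over the 8 libraries the 3 Rbfox genes were lower where choroid plexus markers were higher. For Rbfox2 Pearson's r was -0.879 (permutation p = 0.00565, adjusted over 10 genes 0.0326) and Spearman's rho -0.857 (permutation p = 0.0107, adjusted 0.0357), and without WT 2 and Slm2KO 4 r was -0.763. For Rbfox3 r was -0.848 (permutation p = 0.00652, adjusted 0.0326), rho -0.857 (adjusted 0.0357) and r without these 2 libraries -0.815. For Rbfox1 r was -0.754 (permutation p = 0.0209, adjusted 0.0697), rho -0.881 (adjusted 0.0357) and r without them -0.789. The points share 1 size factor and 1 tissue makeup per library, and the part of choroid plexus RNA in the Rbfox levels was not tested. The share of all features with such an r was not computed, so these relations say nothing particular about the Rbfox genes. Ptbp1 was the only one of the 10 genes with a positive r, 0.608 (permutation p = 0.117, adjusted 0.194; rho 0.786, adjusted 0.0698). For the remaining 6 genes r ran from -0.737 for Mbnl2 to -0.371 for Nova1, with no adjusted p under 0.05.

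Relations to 8 further marker lists were computed after the data had been seen, which makes 90 relations in all. Adjusted over the 90, Pearson's r passed for 3 and Spearman's rho passed for none of these 3 (adjusted 0.121 each). The Rbfox relations to choroid plexus markers did not pass over the 90. The permutation p of r, so adjusted, was 0.0565 for Rbfox2, 0.0587 for Rbfox3 and 0.122 for Rbfox1 (rho adjusted 0.121 each). Rbfox1 followed the neuron list with r = 0.914 (permutation p = 0.000446, adjusted 0.0246; rho 0.929), and 0.764 without WT 1 and Slm2KO 4. Rbfox3 followed the mean of the list of markers of hippocampal fields with r = 0.959 (permutation p = 0.000918, adjusted 0.0275; rho 0.905), and 0.704 without WT 3 and Slm2KO 4. The markers of this list did not all move together. In WT 3, with Rbfox3 at 10432 normalised reads, Prox1 (7869) and Bok (4394) were at their highest. Wfs1 (4083), Fibcd1 (1559) and Pou3f1 (1820) were at their lowest there. Ptbp1 followed the meningeal fibroblast list, such as Dcn and Col1a1, with r = 0.898 (permutation p = 0.000546, adjusted 0.0246; rho 0.905), and 0.906 without WT 1 and Slm2KO 2. The mean log2 level of that list ran from 10.3 to 11.6 in libraries labelled WT and from 9.86 to 10.9 in those labelled Slm2KO, beside the log2 difference of -0.08 of Ptbp1, and its part in that difference was not tested. The share of all features that follow these lists as closely was not computed, so the relations say nothing particular about these genes. A series of 4 libraries is too small for a correlation within it.

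**Figure D5:**
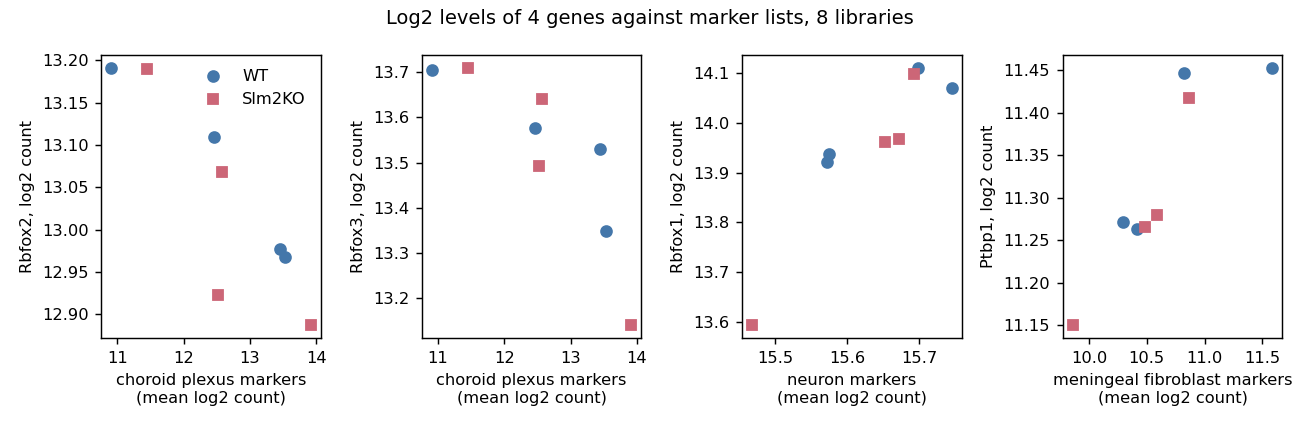
Log2 level of 4 genes (y axes) against the mean log2 level of a marker list (x axes) in 8 libraries, with libraries labelled WT in blue and Slm2KO in red. The Rbfox genes fall as choroid plexus markers rise or rise with neuronal markers, and Ptbp1 rises with meningeal fibroblast markers.

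Among themselves, after subtracting each label's mean, 34 of the 45 pairs of the 10 genes had a positive r over the 8 libraries. The highest was Rbfox1 with Mbnl2 (0.98), and Ptbp1 with Nova1 was at -0.80. The share of pairs of other features with a positive r was not computed, so the count of 34 says nothing particular about these genes. The 3 features with the profile most like each gene, by the same r, were Mark1, Rabgef1 and Nat14 for Rbfox1 (0.995 to 0.992). For Rbfox2 they were A230070E04Rik, Gpr26 and Sox10 (0.994 to 0.983), and for Rbfox3 Slc12a5, Ppfia3 and Eef1a2 (0.998 to 0.997), where Slc12a5 encodes the neuronal chloride transporter KCC2. For Nova1 they were BC005624, Psmd14 and Adamts18 (0.964 to 0.953), and for Nova2 Alox8, the joint row of Atn1 and Grcc10, and 4930526I15Rik (0.996 to 0.989). For Ptbp1 they were Dap, Col13a1 and BC037032 (0.974 to 0.960), for Ptbp2 Rab42, Atxn10 and Fyn (0.994 to 0.992), and for Ptbp3 Dact3, Cpeb4 and Fbxl19 (0.993 to 0.985). For Mbnl1 they were Nkd1, Tfip11 and Pcdhb15 (0.974 to 0.970), and for Mbnl2 they included Gpd1l and Asns (0.993 and 0.992). These values are among the highest of 14994 features over 8 libraries that share depth and cell makeup, and are a description only.

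The table also holds features without a symbol inside these genes and on the same strand. The strand is the one listed for each feature, which reads of a kit that does not mark strand cannot show. The largest lies in Mbnl2 at chromosome 14, 120397587 to 120401581, plus strand, 3995 bases of which 0 fall in annotated Mbnl2 exons. It had 3395 ± 207 normalised reads in libraries labelled WT and 3299 ± 274 in those labelled Slm2KO (SD, n = 4 each), which is 28.2% ± 2.47 of the reads of the Mbnl2 row (n = 8). Its log2 difference was -0.04 (limma adjusted p = 1.00). In Nova1 an unnamed feature lies at 46701075 to 46704217, with 310 of its 3143 bases in annotated Nova1 exons. It came to 11.6% ± 1.68 of the Nova1 row and was highest in Slm2KO 4, with 1086 normalised reads against 650 to 819 in the other 7 libraries. In Ptbp2 a feature at 119727748 to 119729790 came to 6.77% of the row and was also highest in Slm2KO 4, with 976 against 572 to 818. None of the 6 unnamed features with a mean of at least 100 passed in limma (0 of 6, background 0.0039%).

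Other splicing regulators and genes with exons known to be controlled by these proteins were read from the same fit. Of 29 other splicing regulators 0 passed after adjustment (background 0.0039%), with 13 positive and 16 negative differences and a median of -0.02. Khdrbs1, the gene of the STAR protein SAM68 and a relative of Khdrbs3, had the smallest p, with 10685 ± 134 normalised reads in libraries labelled WT and 13826 ± 900 in those labelled Slm2KO. The log2 difference of Khdrbs1 was 0.37 (SE 0.055, limma adjusted p = 0.429). Matr3, a nuclear matrix protein that works with Ptbp1, came next at 0.09.

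The lists of known targets concern gene-level values, since the table gives 1 value per gene and no exon usage. Of 10 Rbfox target genes, 9 Nova target genes, 9 Ptbp target genes and 10 Mbnl target genes tested, 0 passed in each list, and 9, 8, 8 and 9 differences were negative, with medians of -0.04, -0.08, -0.05 and -0.04. The genes with the smallest p were Ptbp2 and Ewsr1 (-0.09) among Rbfox targets, Kcnj6 (-0.16) and Nrxn2 (-0.14) among Nova targets, Ptbp2 and Cltb (-0.08) among Ptbp targets, and among Mbnl targets they included Limch1 (-0.12). Over all features tested 46.1% of differences were positive.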

How the data were processed

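Hippocampal RNA of 8 mouse libraries (4 labelled WT, 4 labelled Slm2KO) was sequenced. The deposited signal values are read counts per feature that the authors scaled between libraries with DESeq, per the submitters' processing notes, and did not divide by length. FastQC, Picard and SAMtools are named there too. The human build hg19 stands in those notes and mm10 in the file header; mm10 is used here. Not given in the sources used here are aligner and counting program. Deposited values were whole multiples of 1 step per library (100% whole within 0.001 of a read), although the step of WT 1 was too close to 1 to be told from rounding.

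Features with a mean of at least 10 (25667) were fitted with limma 3.58.1 (R 4.3.3) on log2(value + 1) with a trended prior and no covariate. Benjamini-Hochberg adjustment covered all of them, with a threshold of 0.05. A fold change is on that scale. Single values and paralog ratios have two-sided exact permutation tests over 70 assignments, and correlations permutation tests over 40320 orders. The fit was also run on simulated counts drawn independently for each feature and library. These lack the differences between libraries seen here, so no result above rests on that run. Exon lengths and transcripts came from GENCODE vM21 (Biopython 1.88). Alternatives were pseudocounts of 0.5 and 10, a minimum mean of 50 or none, TMM factors, quantile normalisation, edgeR 4.0.16 and DESeq2 1.42.0 on recovered reads, no trend, a replicate block, the series of sample numbers as covariate, other gene lengths, and leaving out libraries.

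Named are the 10 genes, Khdrbs2 and Khdrbs3, the 2 genes with the smallest p of each list of other genes (and any that passed), and the 3 symbols most alike each gene. Single-gene results for 2 genes the rule names are left out. Named markers and overlapping genes are examples. Members, marker lists and gene lists were chosen with earlier results of these data known. The comparison of sample number series and the relations to 8 of the 9 marker lists were added after seeing the data.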

Additional observations from a re-analysis of the deposited data

Results flagged for a closer look

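Among the 36 groups of 4 libraries checked (10 genes and 8 ratios under each label), 1 held a library far from the other 3. The ratio of Rbfox2 to Rbfox3 per kb was 0.5997 in Slm2KO 4, and the nearest of the other libraries labelled Slm2KO was at 0.498. The gap was 0.852 of the whole range of the group, above Dixon's 95% critical value for 4 samples. Chance flags about 1 in 20 such groups. Slm2KO 4 was also the library with the highest Ttr, and its part in this ratio was not tested.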

How the results depend on the processing

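In limma 1 feature passed between the labels; DESeq2 called 9 (6 higher, 3 lower), a pseudocount of 10 gave 2, and limma without the trend gave 0 (997 at an unadjusted p under 0.05). Leaving out 1 library gave 0 to 2 features: 0 without WT 1, WT 4, Slm2KO 1 or Slm2KO 3, and 2 without Slm2KO 2 or Slm2KO 4. The cause was not tested. None of the 10 genes passed under any alternative (smallest adjusted p 0.770, Ptbp2 without WT 2 and Slm2KO 4). Same-numbered libraries share only a number (correlations of deviations 0.124, 0.323, -0.0654 and -0.122); with the replicate block 1 feature passed, 999 had an unadjusted p under 0.05 against 904, and the log2 difference of the Ptbp1/Ptbp2 ratio was -0.19.

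Without the libraries lowest and highest in Ttr (WT 2, Slm2KO 4), differences that did not pass changed sign: Rbfox1 to 0.020, Rbfox2 to 0.042, Rbfox3 to 0.13, Nova2 to 0.13, and the ratios Rbfox2/Rbfox3 to -0.087 and Nova1/Nova2 to -0.040. With 1 library left out the log2 difference ran from -0.12 to 0.074 for Rbfox3, -0.13 to 0.091 for Nova2, -0.038 to 0.099 for Ptbp3, -0.17 to -0.00052 for Rbfox1, -0.10 to -0.0012 for Rbfox2, -0.13 to -0.038 for Ptbp1, -0.091 to -0.029 for Mbnl1, 0.0059 to 0.097 for Mbnl2, 0.046 to 0.11 for Nova1 and 0.090 to 0.16 for Ptbp2, and for the ratios from -0.11 to 0.00068 for Rbfox1/Rbfox2, -0.075 to 0.033 for Rbfox2/Rbfox3, -0.028 to 0.24 for Nova1/Nova2 and -0.18 to 0.00013 for Ptbp1/Ptbp3.

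Levels per kb moved with the length used. With the longest transcript the ratios were 4.27 (Rbfox1/Rbfox2), 1.40 (Rbfox1/Rbfox3), 0.328 (Rbfox2/Rbfox3), 1.44 (Nova1/Nova2), 0.310 (Ptbp1/Ptbp2), 3.33 (Ptbp1/Ptbp3), 10.8 (Ptbp2/Ptbp3) and 0.166 (Mbnl1/Mbnl2). With coding length they were 2.04, 1.22 and 0.599 for the Rbfox pairs, 0.233, 1.54 and 6.62 for the Ptbp pairs and 0.168 for Mbnl1/Mbnl2. With unnamed features added to their row Rbfox2/Rbfox3 was 0.560, Ptbp2/Ptbp3 5.68 and Mbnl1/Mbnl2 0.0854. The lowest value of any of the 10 genes was 1420 normalised reads.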

Other observations

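Leaving out WT 2 and Slm2KO 4, the relation to choroid plexus markers moved to -0.750 for Nova1, -0.806 for Ptbp2 and 0.912 for Ptbp1, and to -0.179 for Mbnl1 and -0.340 for Nova2. Against Ttr alone, r for Mbnl2 was -0.702 (permutation p = 0.0541).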
